A study of Mus musculus with 6 samples.

Results

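Cholesterol and fatty acid synthesis was followed through 34 genes in 4T1, a cell line from a mouse mammary carcinoma that serves as a triple-negative breast cancer model. The genes were chosen by name from the 26094 genes of the deposited table, 19 for a sterol arm and 15 for a fatty acid arm. All 34 had values, and 33 were high enough to be tested. In the Limch1_OE group (3 libraries) the cells stably carried the PLVX-ires-neo lentiviral vector with the mouse gene for LIMCH1, an actin-associated protein that activates non-muscle myosin II. In the Vector group (3 libraries) stable control lines were made in the same way. Both groups went through lentiviral infection and antibiotic selection, which began 48 h after infection, and both grew in RPMI medium with 10% FBS, penicillin and streptomycin. The labels name neither the promoter that drives Limch1, nor the antibiotic, nor the number of clones or infections behind each line, nor whether replicate libraries came from separate cultures. The p-values therefore cover the variation among these libraries, part or all of which may be technical. The comparison asked how Limch1 overexpression changed mRNA levels of the lipid synthesis genes.

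Cells make cholesterol from acetyl-CoA through mevalonate, squalene and lanosterol. The transcription factor SREBP2 (gene Srebf2) raises these enzymes when sterols in the endoplasmic reticulum run low, and INSIG proteins hold its escort protein back when sterols are plentiful. Fatty acids are built from the same acetyl-CoA by ACLY, acetyl-CoA carboxylase and fatty acid synthase, then elongated, desaturated and joined to coenzyme A, largely under SREBP1 (gene Srebf1). Products are stored in lipid droplets coated by perilipins or enter mitochondria through carnitine palmitoyltransferase for oxidation. Tumour cells often make lipids themselves, and medium with serum also supplies them.

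Values are FPKM, fragments scaled to transcript length and to the library's mapped total. For each gene its listed transcripts were added up. The sequencing depth behind them is unknown. Limch1 itself was at 23.96, 23.31 and 25.69 FPKM in Limch1_OE replicates 1 to 3 and at 0.25, 0.15 and 0.1 FPKM in Vector replicates 1 to 3. The library sums were similar, 421767 to 425064 FPKM in Limch1_OE and 414837 to 416242 in Vector. Limch1_OE replicate 1 stood apart from the other libraries on the second principal component (8.98% of the variance of tested genes). Mitochondrially encoded genes took 8.73, 6.31 and 6.48% of its FPKM and those of Limch1_OE replicates 2 and 3, and 4.76 to 5.57% in Vector; the part of this in the results was not tested. Of 7 epithelial markers with values all were expressed, with summed levels of 1468 to 1624 FPKM in Limch1_OE and 1490 to 1562 in Vector. Single markers moved in both directions. Krt7, a keratin, rose from 213.6 to 276 FPKM (limma adjusted p = 0.00315; 0.17 with the most abundant transcript), while Epcam, an adhesion protein, fell from 106.5 to 78.1 FPKM (2.45e-04) and Cdh1, E-cadherin, from 290.0 to 256 FPKM (0.0143; 0.0548 without Vector replicate 3). The part of these shifts in the results was not tested. Of 8 adipocyte markers only 2 had values (Fabp4 and Retn), and of 5 hepatocyte markers only 1 (Cyp7a1). Those summed to at most 0.12 and 0.02 FPKM in any library. The 5 of 8 leukocyte and macrophage markers with values summed to at most 0.4 FPKM, and the 5 endothelial markers to at most 0.43. Of 6 fibroblast markers 5 had values. Fibroblast markers summed to 1.79 to 2.02 FPKM in Limch1_OE and 1.33 to 1.62 in Vector, nearly all of it Pdgfra (1.74 to 1.97 and 1.33 to 1.62 FPKM, limma adjusted p = 0.0881), with the collagen genes Col1a1, Col1a2 and Col3a1 at or near 0; their part was not tested.

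Among 33 tested members 9 rose, 3 fell and 21 did not pass the test. Scd2, a stearoyl-CoA desaturase, rose 1.80-fold as a ratio of mean FPKM. Plin2, which coats lipid droplets, fell 1.82-fold, Cyp51, the lanosterol demethylase, fell 1.41-fold, and Cpt1a, the mitochondrial gate for fatty acids, fell 1.35-fold. The other 8 members that passed the test all rose, by 1.12-fold to 1.36-fold. Each gene was tested two-sided with limma on log2(FPKM + 1), p-values were adjusted by Benjamini-Hochberg across the 11842 genes tested, and those under 0.05 passed; log2 fold changes below are Limch1_OE minus Vector on that scale. The 12 members that passed were 36.4% of those tested. Of all genes 34.6% passed, 20.2% higher and 14.4% lower, so the members were called about as often as genes in general. Of all calls 58.3% were higher, and 48.3% with scaling by the trimmed mean of M values. In 17 of the 33 the libraries of the groups did not overlap in FPKM, against 49.1% of all tested genes. The median log2 fold change was 0.08 in each arm and 0.04 over all tested genes. Because these are bulk samples, fewer cells with an mRNA and less of it per cell cannot be told apart.

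**Figure D1:**
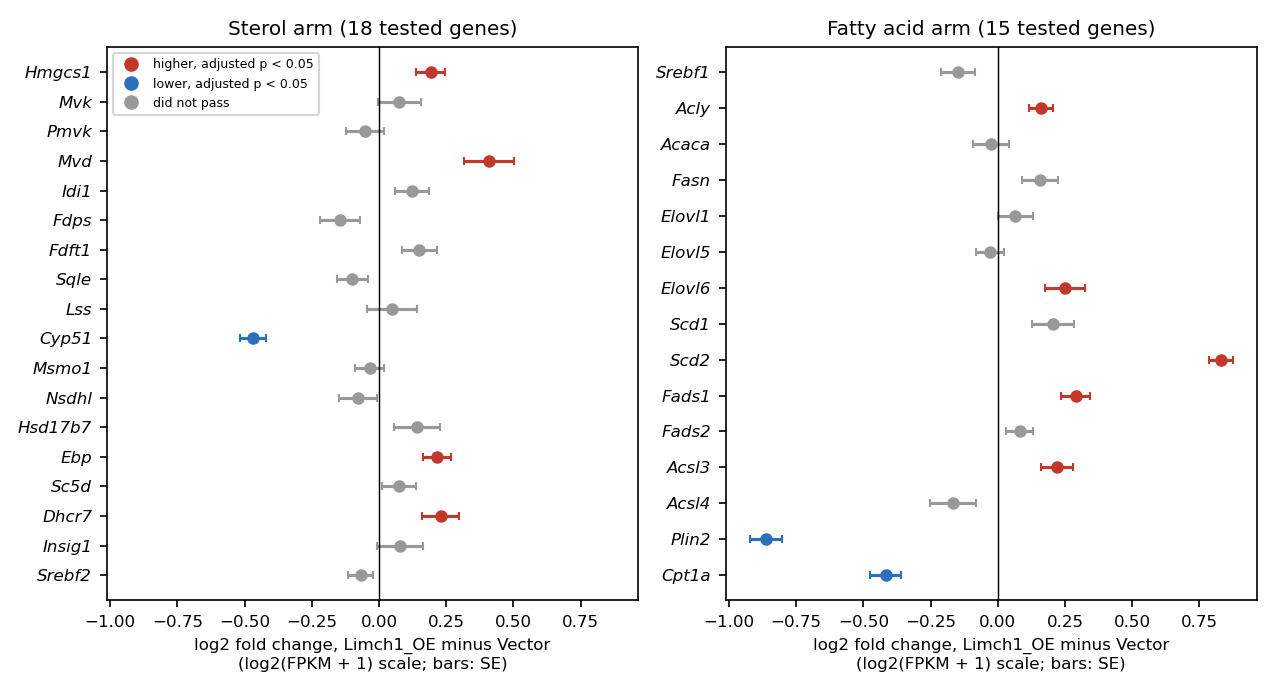
Log2 fold change of each tested member, Limch1_OE minus Vector, on the log2(FPKM + 1) scale (horizontal axis), with the sterol arm in the left panel and the fatty acid arm in the right panel, in pathway order from top to bottom. Points are limma estimates and bars their SE. Scd2 at 0.83 and Plin2 at -0.86 lie farthest from 0, followed by Cyp51 (-0.47), Cpt1a (-0.42) and Mvd (0.41).

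In the sterol arm 4 of 18 tested members rose and 1 fell (27.8% called, against 34.6% of all tested genes), with 13 that did not pass. The median over the 16 enzymes was 0.08. Of the 6 mevalonate pathway genes, Mvd and Hmgcs1 rose. Mvd, the decarboxylase that makes isopentenyl diphosphate (mm10 chromosome 8, 122433601 to 122443422, minus strand), was at 12.12, 13.7 and 15.13 FPKM in Limch1_OE replicates 1 to 3 and at 8.91, 10.57 and 10.56 in Vector replicates 1 to 3. Every Limch1_OE library was above every Vector library, with means of 13.7 ± 1.51 and 10.0 ± 0.956 FPKM (SD, n = 3 each). This amounted to a log2 fold change of 0.41 (SE 0.09, limma adjusted p = 0.00995). Hmgcs1, the cytosolic synthase that joins acetyl-CoA and acetoacetyl-CoA (chromosome 13, 119690379 to 119708260, plus strand), was at 29.34, 29.01 and 28.19 FPKM in Limch1_OE and 25.48, 23.74 and 26.23 in Vector. Those libraries did not overlap either, and the log2 fold change was smaller, at 0.19 (SE 0.05, limma adjusted p = 0.0232). The Hmgcs1 call was lost without Vector replicate 1 (0.0586), Vector replicate 2 (0.0844) or Limch1_OE replicate 2 (0.0712). It was also lost with scaling by the trimmed mean of M values (0.0524) and with only the most abundant transcript of each gene (0.18).

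The kinases and the isomerase of the mevalonate pathway and the farnesyl diphosphate synthase did not pass. Mvk, mevalonate kinase, had a log2 fold change of 0.08, Pmvk, phosphomevalonate kinase, of -0.05, and Idi1, the isopentenyl diphosphate isomerase, of 0.12 (limma adjusted p = 0.498, 0.613 and 0.167). Idi1 libraries nevertheless did not overlap, at 9.83 to 10.39 FPKM in Limch1_OE and 8.61 to 9.59 in Vector. Fdps, which makes the farnesyl diphosphate used by sterols and prenylated proteins, was the most abundant sterol gene at 49.26, 53.78 and 60.43 FPKM in Limch1_OE and 57.1, 63.09 and 60.45 in Vector. It differed by -0.15 on the log2 scale (limma adjusted p = 0.164). It passed as lower only without Limch1_OE replicate 3 (-0.22, adjusted p = 0.0326).

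None of the 3 genes from squalene to lanosterol passed. Fdft1, squalene synthase, was at 19.8 to 20.83 FPKM in Limch1_OE and 16.53 to 19.14 in Vector, without overlap (log2 fold change 0.15, limma adjusted p = 0.105). Sqle, squalene epoxidase and a rate-controlling step, was at 32.94 to 37.27 FPKM in Limch1_OE and 36.19 to 37.6 in Vector (-0.10, limma adjusted p = 0.208). Lss, lanosterol synthase, was the lowest of the 3, at 2.78 to 3.38 and 2.67 to 3.16 FPKM.

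From lanosterol to cholesterol, Cyp51 fell while Ebp and Dhcr7 rose, and the other 4 genes did not pass. Cyp51 (chromosome 5, 4081145 to 4104746, minus strand) was at 15.23, 15.58 and 15.08 FPKM in Limch1_OE and 21.55, 21.27 and 21.86 in Vector. The groups lay well apart, with means of 15.3 ± 0.257 and 21.6 ± 0.295 FPKM (SD, n = 3 each). On the log2 scale it fell by 0.47 (SE 0.05, limma adjusted p = 1.86e-04), the lowest of the sterol arm. Cyp51 overlaps Akap9, which averaged 7.03 FPKM on the opposite strand, and strand use in the authors' counting is not given. The same holds for Fdft1, which overlaps Ctsb (79.7 FPKM), for Elovl1, which overlaps Cdc20 (50.7 FPKM), and for Srebf1, which overlaps Rai1 (18.6 FPKM), each partner more abundant than the member. Ebp, the sterol isomerase (chromosome X, 8185329 to 8193512, minus strand), was at 14.02, 14.19 and 14.42 FPKM in Limch1_OE and 12.05, 12.29 and 11.91 in Vector. This difference was small but larger than the spread, with a log2 fold change of 0.22 (SE 0.05, limma adjusted p = 0.0128).

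Dhcr7, the reductase of the last step (chromosome 7, 143823145 to 143848410, plus strand), was at 14.26, 12.15 and 13.09 FPKM in Limch1_OE and 11.45, 10.98 and 10.78 in Vector. The libraries did not overlap, with a log2 fold change of 0.23 (SE 0.07, limma adjusted p = 0.0311). That call was lost without Vector replicate 1 (0.0582), 2 (0.083) or 3 (0.0908) or without Limch1_OE replicate 1 (0.0728) or 3 (0.0592), as well as with scaling by the trimmed mean of M values (0.0605) and with no filter on low values (0.0729). Between these steps, the methyl oxidase gene Msmo1 was at 39.23 to 43.03 FPKM in Limch1_OE and 40.23 to 43.74 in Vector, and Nsdhl, which removes the C4 carboxyl group, at 11.52 to 13.62 and 12.75 to 13.65. The keto reductase gene Hsd17b7 was at 3.18 to 3.51 and 2.66 to 3.23 FPKM, and the desaturase gene Sc5d at 13.04 to 14.64 and 12.62 to 13.61. The libraries of all 4 overlapped.

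The regulators of the sterol arm did not pass. Srebf2 was at 39.29, 40.12 and 40.36 FPKM in Limch1_OE and 42.66, 42.64 and 40.47 in Vector, slightly lower without overlap, with a log2 fold change of -0.07 (SE 0.05, limma adjusted p = 0.273). Insig1, itself an SREBP target, was at 7.4 to 8.36 FPKM in Limch1_OE and 6.61 to 8.16 in Vector (0.08, limma adjusted p = 0.507). Ch25h, the cholesterol 25-hydroxylase, which interferon induces in macrophages, was the member that could not be tested. It was listed at 0, 0 and 0.03 FPKM in Limch1_OE and at 0.06, 0 and 0.02 in Vector. Summed over the arm, FPKM was 338.2 to 351.9 in Limch1_OE and 345.8 to 350.1 in Vector.

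Promoter sequences of Hmgcs1 and Mvd, which rose, and Cyp51, which fell, are shown because SREBP2 is known to act on sterol genes together with NF-Y, whose site holds CCAAT. They are RefSeq sequences (GRCm38.p6, the mm10 assembly), each 200 bases, written 5′ to 3′ on the strand of the gene. Capitals mark CCAAT, which reads ATTGG on the other strand, and TCACNCCAC, a form of the sterol regulatory element. The coordinates are chr13:119690151-119690350 (plus strand) for Hmgcs1, chr8:122443423-122443622 (minus strand) for Mvd and chr5:4104722-4104921 (minus strand) for Cyp51. The Hmgcs1 and Mvd sequences end just before the start site, and that of Cyp51 ends with its CCAAT, 25 bases inside the GENCODE gene.
Hmgcs1: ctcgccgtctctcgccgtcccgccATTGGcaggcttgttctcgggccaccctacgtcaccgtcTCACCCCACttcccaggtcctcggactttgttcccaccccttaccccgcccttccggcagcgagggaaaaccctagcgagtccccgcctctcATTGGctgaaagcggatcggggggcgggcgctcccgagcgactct
Mvd: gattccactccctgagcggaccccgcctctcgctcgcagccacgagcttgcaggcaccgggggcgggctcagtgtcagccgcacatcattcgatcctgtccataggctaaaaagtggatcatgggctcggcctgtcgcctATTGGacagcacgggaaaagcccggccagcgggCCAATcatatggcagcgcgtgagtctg
Cyp51: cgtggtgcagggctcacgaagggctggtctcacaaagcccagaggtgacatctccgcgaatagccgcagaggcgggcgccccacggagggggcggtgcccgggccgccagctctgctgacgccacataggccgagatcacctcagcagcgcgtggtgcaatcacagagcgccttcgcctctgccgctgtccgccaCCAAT
Both strands were searched in windows from 250 bases before to 50 after each RefSeq start, which were at hand for 28 of the 34 members. CCAAT was found in all 13 sterol enzymes with a window, in 8 of 12 fatty acid genes and in 43.7% of 8520 tested genes with a window. Hmgcs1 alone among the 28 held TCACNCCAC, which was in 1.4% of tested genes. The shorter CACNCCAC, which lies within it, was in Hmgcs1, Insig1 and Acsl4 (7.5% of tested genes). The E-box CACGTG was in 6 of the 28 (12.3% of tested genes). The CCAAT letters were thus shared by sterol genes that rose, fell and did not pass.

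In the fatty acid arm 5 of 15 members rose and 2 fell (46.7% called, against 34.6% of all tested genes), and 8 did not pass. The number that rose was 2 without Vector replicate 1 or without Vector replicate 2. The transcription factor gene Srebf1 was at 7.71, 7.91 and 8.55 FPKM in Limch1_OE and 8.9, 8.97 and 9.19 in Vector, lower without overlap but not past the test (log2 fold change -0.15, SE 0.06, limma adjusted p = 0.105). Of the 3 synthesis genes, Acly rose. This gene encodes ATP citrate lyase, the source of cytosolic acetyl-CoA for both arms (chromosome 11, 100476353 to 100528000, minus strand). It was at 71.5, 70.72 and 73.73 FPKM in Limch1_OE and 65.37, 65.59 and 62.11 in Vector. The gap was narrow, with a log2 fold change of 0.16 (SE 0.04, limma adjusted p = 0.0244). The Acly call was lost without Vector replicate 1 (0.0607), 2 (0.0501) or 3 (0.0833) or without Limch1_OE replicate 2 (0.0535) or 3 (0.0599), and with the trimmed mean of M values (0.0718). Acaca, acetyl-CoA carboxylase, was at 16.21 to 17.6 FPKM in Limch1_OE and 15.82 to 18.37 in Vector (-0.03, limma adjusted p = 0.792). Fasn, fatty acid synthase, was at 59.58, 62.69 and 67.04 FPKM in Limch1_OE and 56.73, 60.59 and 52.14 in Vector, with overlapping libraries (0.16, limma adjusted p = 0.097). Fasn passed only with quantile normalization (0.21, adjusted p = 0.0352).

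Among the elongases, Elovl6, which extends C16 chains to C18 (chromosome 3, 129532355 to 129638495, plus strand), was at 8.37, 7.43 and 7.62 FPKM in Limch1_OE and 6.1, 6.26 and 6.86 in Vector. All Limch1_OE libraries were higher, by 0.25 on the log2 scale (SE 0.07, limma adjusted p = 0.0294). The Elovl6 call was lost without Vector replicate 1 (0.102) or 2 (0.0857) or Limch1_OE replicate 1 (0.0734). It was also lost with no filter on low values (0.0722), with only the most abundant transcript (0.143) and with the replicate number as a block (0.0514). Elovl5, which extends polyunsaturated chains, was at 37.9 to 42.09 FPKM in Limch1_OE and 39.92 to 41.63 in Vector. Elovl1, which makes very long chains, was at 26.75 to 29.34 and 25.56 to 29.32 FPKM. Neither passed (limma adjusted p = 0.705 and 0.475).

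The desaturase gene Scd2 had the largest increase of the 34 members. SCD enzymes place the first double bond in saturated acyl-CoA and give oleate and palmitoleate. Scd2 (chromosome 19, 44293674 to 44306864, plus strand) was at 86.84, 92.07 and 87.66 FPKM in Limch1_OE and 49.79, 49.28 and 49.44 in Vector. The groups lay far apart, with means of 88.9 ± 2.81 and 49.5 ± 0.261 FPKM (SD, n = 3 each). Its log2 fold change of 0.83 (SE 0.04, limma adjusted p = 1.64e-06) had rank 72 among the 2388 genes called higher. Leaving out any 1 library gave 0.81 to 0.85. For Scd2 and each other called member an exact permutation test (two-sided, difference of means) reached p = 0.1, its lower limit with 3 libraries in each group.

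Scd2 lies on chromosome 19 with its paralogs, and all 4 Scd genes were higher in each Limch1_OE library than in each Vector library, where 49.1% of all tested genes did not overlap in either direction. Scd1 (44394455 to 44407879, minus strand) was at 4.22, 3.78 and 4.33 FPKM in Limch1_OE and 3.48, 3.32 and 3.48 in Vector, but did not pass (0.21, limma adjusted p = 0.0717; 0.0377 with no intensity trend). From the list of further fatty acid genes, Scd3 (44203269 to 44244016, plus strand) was at 2.55, 2.1 and 3.06 against 1.58, 1.91 and 1.31 FPKM (0.46, limma adjusted p = 0.025). Scd4 (44333092 to 44346743, plus strand) was at 1.22, 1.48 and 1.67 against 0.76, 0.78 and 0.78 FPKM (0.47, limma adjusted p = 0.00996). Every Vector library was under 1 FPKM, so Scd4 met the filter of 1 FPKM in at least 3 libraries only through Limch1_OE. Its test is therefore not independent of that filter. The Scd3 call was lost without Vector replicate 1 (0.063) or 3 (0.0807) or Limch1_OE replicate 1 (0.0576) or 3 (0.0726). It was also lost with only the most abundant transcript (0.0772), no filter on low values (0.107), quantile normalization (0.0515) and the replicate block (0.0521). Scd2 made up 90.6 to 92.6% of the summed Scd FPKM in Limch1_OE and 89.1 to 89.9% in Vector. Of the 50-base windows in the listed transcripts of each Scd gene, 3.01 to 6.37% also occur in another Scd gene, and reads from these may be split between paralogs. Scd2 was far more abundant than its paralogs, so even a small share of its reads could be large beside their values. Whether the values of Scd1, Scd3 and Scd4 hold Scd2 reads was not tested, so their rises cannot be counted as independent of Scd2.

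The front-end desaturases make polyunsaturated fatty acids from dietary precursors, and their genes Fads1 and Fads2 are neighbours on chromosome 19. Fads1 (10182888 to 10196877, plus strand) rose, at 16.52, 16.4 and 16.2 FPKM in Limch1_OE and 13.48, 13.42 and 12.76 in Vector. The libraries of each group lay close together, with a log2 fold change of 0.29 (SE 0.05, limma adjusted p = 0.00367). Fads2 was more abundant but did not pass, at 37.91, 40.91 and 40.74 FPKM in Limch1_OE and 37.46, 36.87 and 38.45 in Vector (0.08, limma adjusted p = 0.232).

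Acyl-CoA synthetases load fatty acids onto coenzyme A. Acsl3, which serves lipid droplet formation (chromosome 1, 78657825 to 78707743, plus strand), was at 24.48, 23.62 and 24.17 FPKM in Limch1_OE and 19.77, 19.59 and 22.33 in Vector, without overlap. Its summed FPKM rose by a log2 fold change of 0.22 (SE 0.06, limma adjusted p = 0.0226). That sum also depends on how fragments were split between transcripts of different length, given below. The Acsl3 call was lost without Vector replicate 1 (0.0839) or 2 (0.0804) or Limch1_OE replicate 1 (0.051) or 2 (0.0517), and with no filter on low values (0.0551). Acsl4, which prefers arachidonate and is known for its part in ferroptosis, was at 16.49, 14.96 and 12.94 FPKM in Limch1_OE and 17.64, 16 and 16.35 in Vector. Those libraries overlapped (-0.17, limma adjusted p = 0.162), and Acsl4 passed as lower only without Limch1_OE replicate 1 (-0.24, adjusted p = 0.0475).

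Plin2 was the most abundant member and fell the most. Perilipin 2 coats droplets in most cell types, and its mRNA is known to respond to fatty acid supply through PPAR factors. Plin2 (chromosome 4, 86648386 to 86670060, minus strand) was at 127.67, 146.01 and 148.01 FPKM in Limch1_OE and 254.29, 258.73 and 254.25 in Vector. Limch1_OE replicate 1 was the lowest library, and all 3 were far under Vector, with means of 141 ± 11.2 and 256 ± 2.58 FPKM (SD, n = 3 each). Its log2 fold change of -0.86 (SE 0.06, limma adjusted p = 1.49e-05) had rank 248 among the 1706 genes called lower, and it was -0.79 without Limch1_OE replicate 1. The Plin2 promoter is printed as that of the member that fell most (GRCm38.p6, chr4:86670061-86670260, minus strand, 200 bases ending before the start), with its CCAAT in capitals.
Plin2: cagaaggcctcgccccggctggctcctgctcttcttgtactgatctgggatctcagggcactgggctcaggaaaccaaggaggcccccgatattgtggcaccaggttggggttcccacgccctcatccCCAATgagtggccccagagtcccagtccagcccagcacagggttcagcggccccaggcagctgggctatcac

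Cpt1a, the liver-type carnitine palmitoyltransferase that controls entry of long-chain fatty acids into mitochondria (chromosome 19, 3322334 to 3385733, plus strand), fell as well. It was at 15.94, 17.68 and 16.37 FPKM in Limch1_OE and 22.92, 23.07 and 21.69 in Vector. The libraries were clearly apart, with a log2 fold change of -0.42 (SE 0.06, limma adjusted p = 9.74e-04). Without Plin2, which took the largest share, the fatty acid arm summed to 437.5 to 443.3 FPKM in Limch1_OE and 377.9 to 388.4 in Vector. With Plin2 it summed to 565.2 to 589.6 and 632.2 to 646.8 FPKM, so the direction of the sum turned with that 1 gene. The rise of the sum without Plin2 also leaned on 1 gene, as mean Scd2 was 88.9 FPKM in Limch1_OE and 49.5 in Vector.

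**Figure D2:**
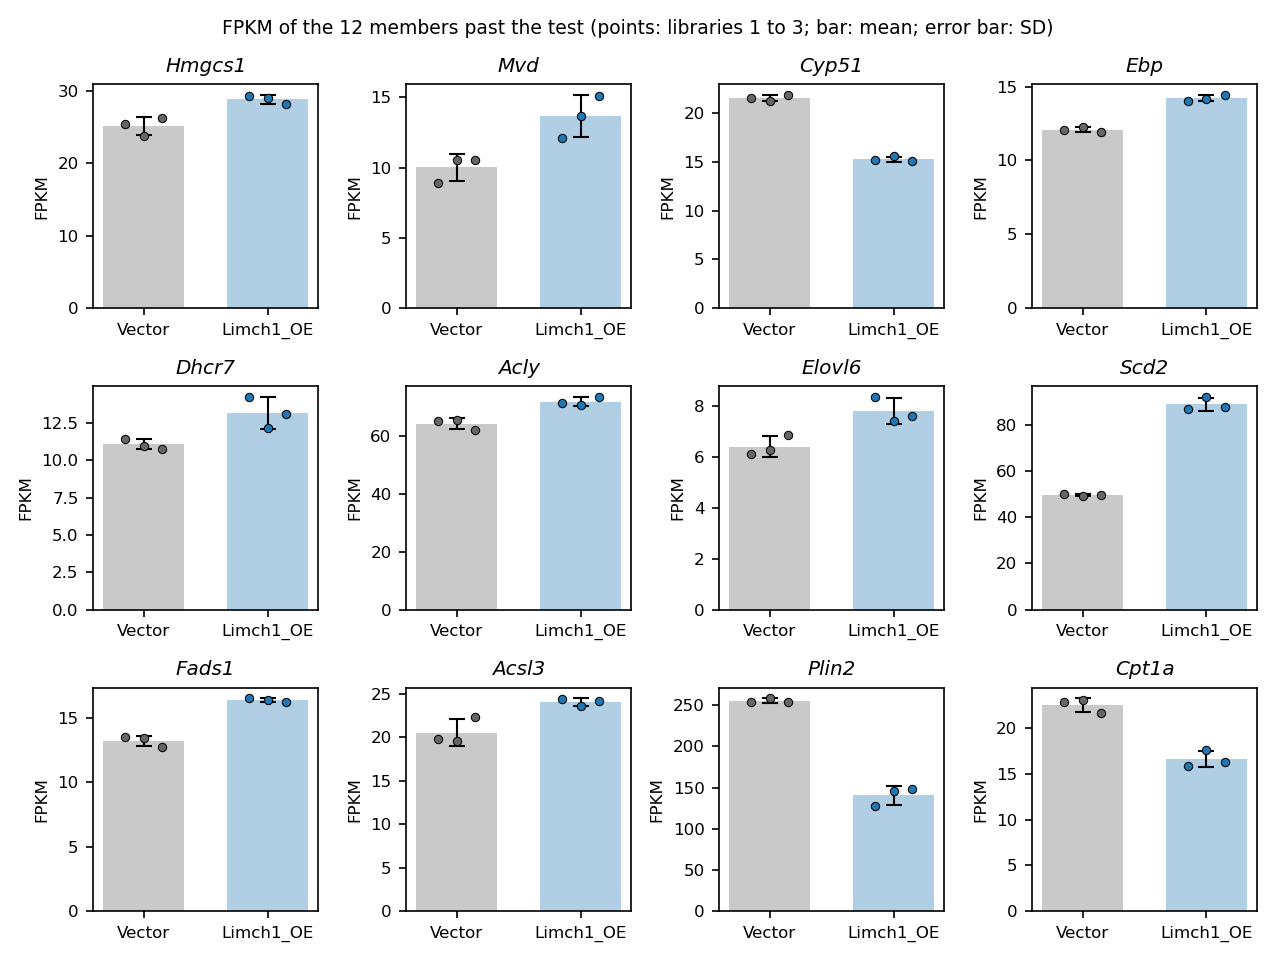
FPKM of the 12 members that passed the test, 1 panel per gene with its own vertical axis starting at 0. Points are the 3 libraries of Vector (grey) and Limch1_OE (blue), bars the means and error bars the SD. In each panel the libraries of the groups do not overlap, and the gap is widest in Scd2 (means 49.5 and 88.9 FPKM) and Plin2 (256 and 141 FPKM).

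Mvd, Cyp51, Ebp, Scd2, Fads1, Plin2 and Cpt1a, 7 of the 12 called members, kept their call and direction under all 15 other settings, the 6 that leave out a library included. The sterol and fatty acid counts of rising genes went from 4 and 5 to 2 and 2 without Vector replicate 1 or without Vector replicate 2. The fatty acid count was 3 without Limch1_OE replicate 1 or 2, and the sterol count of falling genes was 2 without Limch1_OE replicate 3, with Fdps added.

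The table is by transcript, and 13 members had at least 2 listed transcripts with a mean of 1 FPKM or more. In 9 of them (Acaca, Acly, Acsl3, Dhcr7, Elovl1, Fdft1, Fdps, Mvk and Sqle) the means of these transcripts went in different directions. The carboxylase transcript Acaca-201 was at 2.4 to 13.13 FPKM in Limch1_OE and 4.49 to 12.19 in Vector and the transcript Acaca-202 at 3.41 to 12.82 and 4.84 to 11.24, so the split varied within both groups. Acsl3, Fdps and Elovl1 had 1 transcript higher and another lower with no overlap of the libraries; over all transcripts with at least 1 FPKM in at least 3 libraries, 33.0% did not overlap in either direction. Acsl3-201 was at 11.02, 13.49 and 10.03 FPKM in Limch1_OE and 15.31, 16.35 and 14.7 in Vector. Acsl3-205, which is shorter (2976 against 3950 bases), was at 13.43, 10.03 and 14.07 against 4.4, 3.19 and 7.59 FPKM. The share of Acsl3 on the shorter transcript was thus 42.5 to 58.2% in Limch1_OE and 16.3 to 33.99% in Vector. Because FPKM is scaled to length, a fragment assigned to the shorter transcript adds more to the gene sum. How much of the rise in summed Acsl3 FPKM came from this shift was not tested.

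For Fdps, the farnesyl diphosphate synthase, Fdps-201 was at 35.99, 36.81 and 46.1 FPKM in Limch1_OE and 49.84, 52.82 and 50.53 in Vector. Fdps-203 went the other way, at 9.77, 14.89 and 12.13 against 4.77, 6.75 and 6.85 FPKM. For Elovl1, Elovl1-202 was at 5.2, 6.65 and 3.68 FPKM in Limch1_OE and 0.46, 0.93 and 0.92 in Vector, while Elovl1-201 was at 19.59 to 21.6 against 21.99 to 26.89 FPKM. The gene sums of Fdps and Elovl1 did not pass the test. Dhcr7 showed how such splits can vary between libraries of 1 group. Dhcr7-202 held 9.85 FPKM in Limch1_OE replicate 1 and was listed at 0 in the other 5 libraries, whereas Dhcr7-201 was listed at 0 in that library and at 9.3 to 12.13 FPKM in the others. When only the most abundant transcript of each gene was used, the log2 fold changes of Acsl3 and Dhcr7 were -0.40 and -1.01, against 0.22 and 0.23 for the sum (limma adjusted p = 0.0596 and 0.529). No whole-table test of transcripts was run.

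**Figure D3:**
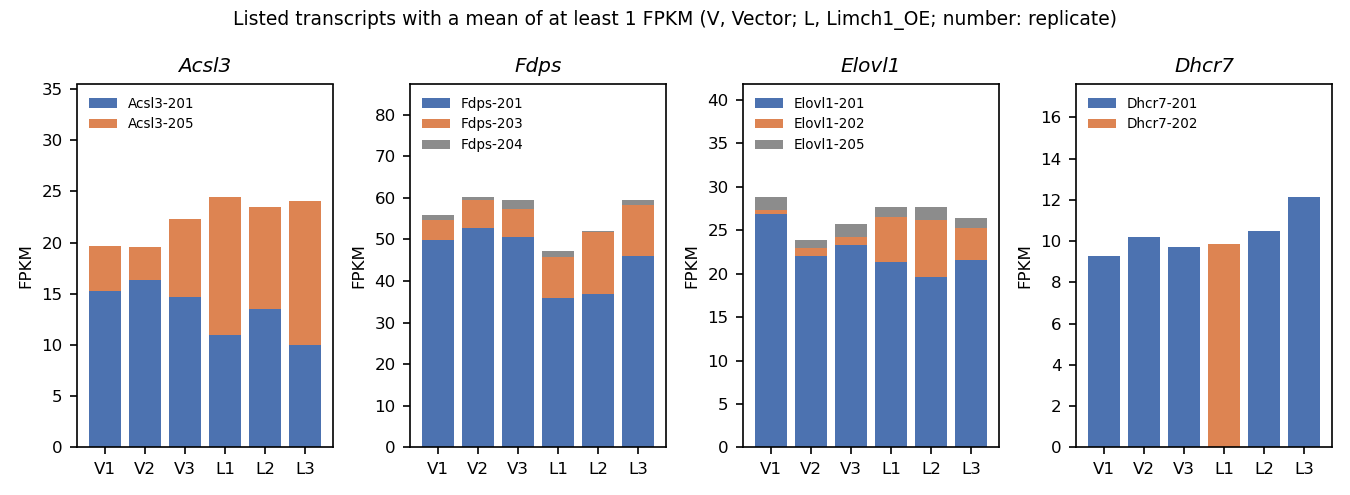
FPKM of the listed transcripts with a mean of at least 1 FPKM, stacked for each library (V1 to V3, Vector; L1 to L3, Limch1_OE), for Acsl3, Fdps, Elovl1 and Dhcr7. Acsl3-205, Fdps-203 and Elovl1-202 take a larger part in every Limch1_OE library, and Dhcr7 changes transcript in L1 only.

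Further lipid genes came from 5 lists with 151 genes, of which 137 had values and 114 were tested. Of these, 23 rose, 12 fell and 79 did not pass, 30.7% called against 34.6% of all tested genes. The number that rose was 12 without Vector replicate 1, 14 without Vector replicate 3 and 15 without Limch1_OE replicate 2. In the list of other sterol synthesis and SREBP genes 3 of 20 rose and 3 fell. Ggps1, which makes geranylgeranyl diphosphate, rose by 0.34, Mbtps2, a protease that releases SREBP, by 0.23 and Insig2 by 0.19 (limma adjusted p = 0.0102, 0.0231 and 0.0497). Nus1, a dolichol synthesis subunit, fell by 0.19 (limma adjusted p = 0.0349). Insig2 lost its call without Vector replicate 1 (0.137) or 2 (0.151) or Limch1_OE replicate 2 (0.168) or 3 (0.0636), and Nus1 without Vector replicate 1 (0.114) or 3 (0.105) or Limch1_OE replicate 2 (0.0651) or 3 (0.0873). Without Vector replicate 1 or 2 or Limch1_OE replicate 1 or 2, in that order, Mbtps2 was at 0.077, 0.064, 0.0534 and 0.0702. Ggps1 lost its call with only the most abundant transcript of each gene (0.17, limma adjusted p = 0.234).

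Of 20 tested genes of sterol transport and liver X receptor targets, 4 rose and 3 fell. The share called was close to that of all tested genes (34.6%). Npc2, whose protein binds cholesterol in the lysosome lumen, had the lowest fold change of all lipid genes tested. It was at 99.46, 115.45 and 111.56 FPKM in Limch1_OE and 221.67, 220.17 and 232.88 in Vector, a 2.07-fold difference (log2 fold change -1.04, limma adjusted p = 3.78e-06). Lpcat3, a lysophospholipid acyltransferase, fell by 0.35 and Soat1, which esterifies cholesterol for storage, by 0.21 (limma adjusted p = 0.0117 and 0.0199). Those with the highest increases were the sterol transfer gene Gramd1a (0.36), the liver X receptor beta gene Nr1h2 (0.26) and the oxysterol-binding relative Osbpl2 (0.22; limma adjusted p = 0.0475, 0.00314 and 0.0127). The liver X receptor targets Abca1 and Abcg1 were at 0.01 FPKM or less in every library and not tested. Soat1 lost its call without Vector replicate 1 (0.0727) or 3 (0.0642) or Limch1_OE replicate 2 (0.06), Osbpl2 without Vector replicate 2 (0.0506) or Limch1_OE replicate 2 (0.0502), and Gramd1a, whose libraries overlapped, without Vector replicate 1 (0.0733) or 3 (0.109) or Limch1_OE replicate 1 (0.135) or 2 (0.12).

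Of 27 further genes of fatty acid synthesis, elongation and activation 6 rose and 2 fell (29.6% called, against 34.6% of all tested genes). Besides Scd3 and Scd4, the carboxylase activator gene Mid1ip1 rose by 0.28 (limma adjusted p = 0.0136, and 0.0519 without Vector replicate 1). Me1, the malic enzyme that supplies NADPH, fell by 0.26 and the thioesterase gene Acot7 by 0.22 (limma adjusted p = 0.00424 and 0.0143). Of 21 genes of glycerolipid synthesis, droplets and lipolysis 4 rose and 1 fell (23.8% called). The one that fell was Hilpda, a droplet protein that inhibits lipolysis and is induced by hypoxia and PPAR factors. It was at 10.09, 11.99 and 11.06 FPKM in Limch1_OE and 15.96, 18.7 and 16.23 in Vector (log2 fold change -0.58, limma adjusted p = 0.00109). Pnpla2, the triglyceride lipase ATGL, rose by 0.27 (limma adjusted p = 0.00662), the acyltransferase gene Agpat4 by 0.30 (0.0229) and Dgat2, which makes triglyceride, by 0.37 (0.0293). Agpat4 lost its call without Vector replicate 1 (0.0805) or 3 (0.0728) or Limch1_OE replicate 2 (0.0848). Dgat2 lost it without Vector replicate 1 (0.0936) or 3 (0.0891) or Limch1_OE replicate 1 (0.0671) or 3 (0.0834).

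Of 26 fatty acid oxidation genes 6 rose and 3 fell (34.6% called, the same share as of all tested genes). Acadl, the long-chain acyl-CoA dehydrogenase, was at 64.02, 67.97 and 66.09 FPKM in Limch1_OE and 119.47, 116.11 and 116.19 in Vector, a 1.78-fold difference with no overlap (log2 fold change -0.82, limma adjusted p = 1.82e-06). The electron transfer flavoprotein gene Etfb fell by 0.29 and Slc25a20, the carnitine carrier of the inner membrane, by 0.24 (limma adjusted p = 0.0117 and 0.0406). Slc25a20 lost its call without Vector replicate 1 (0.0764), 2 (0.133) or 3 (0.0754) or Limch1_OE replicate 1 (0.0782) or 3 (0.0993). Etfb lost its call with only the most abundant transcript of each gene (0.0594). The highest increases were the peroxisomal genes Hsd17b4 (0.40) and Crot (0.34) and the mitochondrial hydratase gene Echs1 (0.29; limma adjusted p = 4.67e-04, 0.00287 and 0.00308). Of the other acyl-CoA dehydrogenases listed, the medium-chain gene Acadm rose by 0.29 (limma adjusted p = 0.00815). The very-long-chain gene Acadvl was at 0.08, the short-chain gene Acads at 0.08 and Acad9 at 0.10, and none of them passed (limma adjusted p = 0.294, 0.396 and 0.196).

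**Figure D4:**
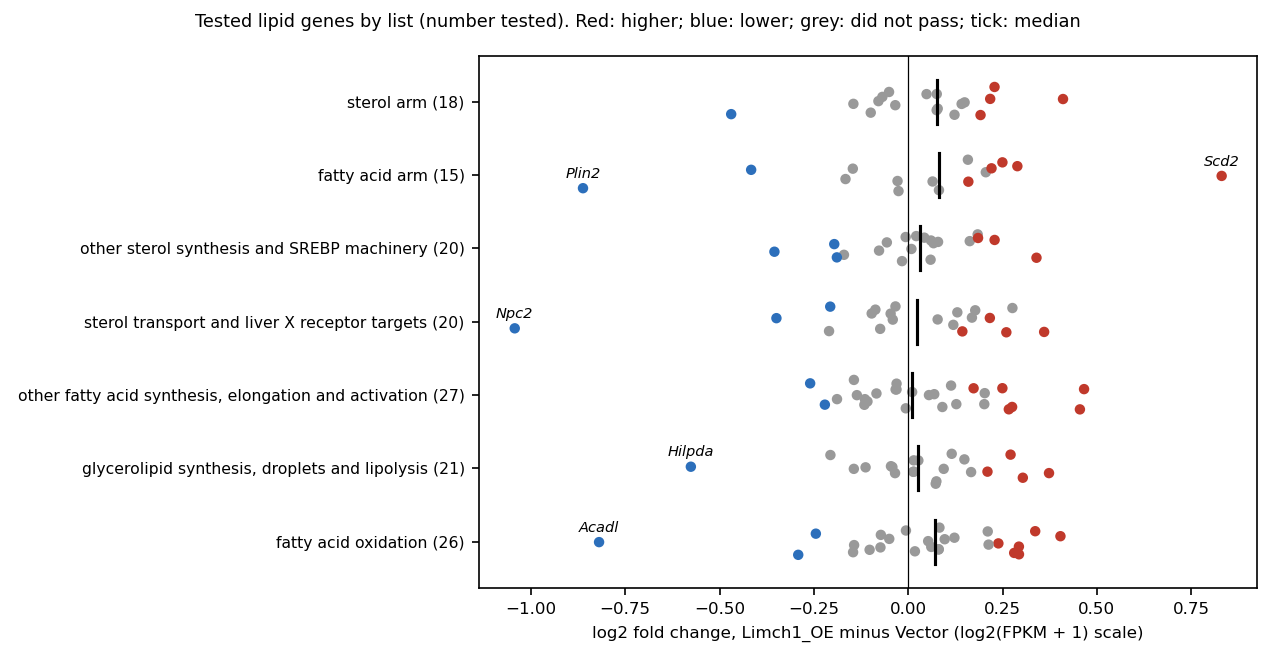
Log2 fold change (Limch1_OE minus Vector, log2(FPKM + 1) scale, horizontal axis) of every tested gene of the sterol and fatty acid arms and of the 5 further lists, 1 row per list with the number tested. Red points rose, blue points fell, grey points did not pass, and black ticks are medians, which lie between 0.01 and 0.08. Npc2 (-1.04), Plin2 (-0.86) and Acadl (-0.82) lie farthest left and Scd2 (0.83) farthest right.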

How the data were processed

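Messenger RNA was profiled in 6 libraries, 3 Vector and 3 Limch1_OE. The authors deposited 1 table of FPKM for 77865 transcripts. Per the submitters' processing notes, the build was mm10 and the tools, listed without roles, were StringTie 2.2.1, featureCounts 2.0.1, STAR 2.7.10 and fastp 0.23.2; for annotation release, strand use and filters the sources used here give nothing. Titles gave the group and replicate, since the genotype field numbers the overexpressed gene upwards through the replicates (Limch2_OE, Limch3_OE). The cell line field likewise runs from 4T1 to 4T6 over the 6 libraries, while all titles say 4T1.

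The listed transcripts were summed per gene and named from GENCODE M21 (mm10), which matched 26033 of 26094 genes; every principal transcript was listed for 33 of the 34 members, Elovl1 being the exception. A sum can miss unlisted transcripts. Genes reaching 1 FPKM in 3 or more libraries were tested with limma 3.58.1 in R 4.3.3 (intensity trend, pseudocount 1), tested on simulated data first. The scale understates changes of low genes. Alternatives changed the pseudocount (0.1 and 5), filter, scaling, transcript choice, trend, block and libraries. Cyp51, Elovl1, Srebf1 and Fdft1 overlap a gene averaging at least 1 FPKM on the opposite strand, and without strand shared reads cannot be told apart. Acsl3 overlaps Utp14b (1.09 FPKM) on the same strand, where strand would not separate them. Depth is unknown, so precision is given as the SD over libraries. The members, lists and settings were chosen with earlier results of these data known. Named genes were the members and, per further list, up to 3 called genes in each direction with the largest changes. Acadm, Acadvl, Acads, Acad9, Abca1 and Abcg1 were named after their values were seen. Of the genes that rule names, 2 are not reported here.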

Additional observations from a re-analysis of the deposited data

How the results depend on the processing

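The 15 other settings changed pseudocount, filter, scaling, transcript choice, block, trend or library. Of 12 called members, 7 kept their call in all of them. With scaling by the trimmed mean of M values, 2 sterol members rose, and 48.3% of all calls were higher, against 58.3%. With no filter on low values, 3 fatty acid members and 13 genes of the further lists rose, against 5 and 23. With the most abundant transcript, 2 sterol and 2 fatty acid members and 7 further genes rose and 6 further genes fell, with 997 higher and 999 lower over all genes, against 2388 and 1706. That setting turned 5 named genes, to -1.01 for Dhcr7, -0.40 for Acsl3, -0.0596 for Nr1h2, 0.0715 for Lpcat3 and -0.0628 for Pnpla2, none past the test. The cause was not tested. Leaving out 1 library gave 2 to 3 sterol members higher and 1 to 2 lower, 2 to 4 fatty acid members higher and 2 to 3 lower, 12 to 18 further genes higher and 8 to 12 lower, and 1597 to 2225 genes higher and 1285 to 1553 lower over all genes. With the replicate number as a block, 4 sterol and 4 fatty acid members rose, 1 and 2 fell, and 2219 genes were higher and 1589 lower; Elovl6 lost its call among the members (adjusted p = 0.0514), as did Insig2, Nus1, Dgat2 and Scd3. Same-numbered libraries correlated at -0.002, 0.046 and 0.059 in their deviations from the group means. Differently numbered ones correlated at -0.067 to 0.027, and not every library correlated best with its own number. With 3 libraries in each group these values cannot show whether same-numbered libraries shared a batch. With unknown depth, small changes in genes near 1 FPKM cannot be separated from counting error.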
